A study of Homo sapiens with 10 samples.

Results

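The genes described here encode the nuclear subunits of the oxidative phosphorylation complexes. They were picked by a rule on symbol and level. The symbol pattern took NDUFA, NDUFB, NDUFC, NDUFS or NDUFV followed by a number. It also took SDHA to SDHD, CYC1, and symbols starting with UQCR, COX4 to COX8 or ATP5. Members needed a mean of at least 0.5 FPKM (fragments scaled to transcript length and to the mapped reads) over the 10 samples. The rule and the gene lists used below were set with earlier results of these data known. The pattern matched 92 of the 23284 genes in the expression table and 85 passed the floor, 39 in complex I, 4 in complex II, 10 in complex III, 13 in complex IV and 19 in complex V. The 7 genes below the floor were ATP5L2, COX4I2, COX6A2, COX6B2, COX7A1, COX8C and UQCRBP1. Of the 85 members, 78 encode a subunit. The other 7 were ATP5EP2, a processed pseudogene of ATP5E, UQCRHL, an intronless copy of UQCRH, the readthrough genes ATP5J2-PTCD1 and NDUFC2-KCTD14, and ATP5S, ATP5SL and COX4NB, which share an older symbol stem without encoding a subunit. NDUFA4 was counted under complex I by its symbol, although its product is now placed in complex IV. Its paralogue NDUFA4L2 was also counted there by symbol.

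Oxidative phosphorylation takes place in the inner mitochondrial membrane. Complex I oxidizes NADH and complex II oxidizes succinate, and both pass electrons through ubiquinone to complex III, cytochrome c and complex IV, which reduces oxygen to water. The proton gradient built by complexes I, III and IV drives ATP synthesis by complex V. All subunits of complex II come from nuclear genes, whereas the other complexes also hold subunits encoded by mitochondrial DNA, which were not analysed here.

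Polyadenylated RNA was sequenced from K562, an established human line of chronic myeloid leukemia with erythroid features. Cells received CBP30 (2 or 5 µM), I-CBP112 (2 or 5 µM) or the vehicle DMSO for 48 h, and both compounds bind the bromodomains of the acetyltransferases CREBBP and EP300. Each of the 5 groups held 2 samples, which the labels call biological replicates, and all 4 treated groups were compared with the same 2 DMSO samples. The line is a single genetic background, and in bulk samples fewer cells of a type and less RNA per cell cannot be told apart. Of 12 erythroid and K562 markers, 12 were present, with means from 4.15 FPKM (EPOR) to 279 FPKM (HBZ). Their summed level was 2117 and 2060 FPKM in the DMSO samples, 1011 and 762 FPKM with 2 µM CBP30, 680 and 703 FPKM with 5 µM CBP30, and between 1199 and 1384 FPKM with I-CBP112. With 5 µM CBP30, 11 of the 12 fell and 1 rose, against 25.4% of all tested genes lower and 21.2% higher. Among 12 markers of lymphoid, epithelial, fibroblast and liver cells, 8 averaged under 0.5 FPKM and MS4A1 and KRT5 were listed at 0 in every sample, whereas EPCAM ranged from 31.8 to 59.7 FPKM. The summed level of these markers was 63.2 and 62.0 FPKM in DMSO and 38.6 and 40.3 FPKM with 5 µM CBP30, and the other samples ranged from 48.3 to 63.1 FPKM. Most of this sum was EPCAM, whereas CD3E went from 1.04 and 1.16 FPKM in DMSO to 3.15 and 3.31 FPKM with 5 µM CBP30 and COL1A1 from 0.520 and 0.442 to 1.81 and 2.02 FPKM. Of the 4 such markers that passed the filter, 1 fell and 2 rose with 5 µM CBP30. The part of either marker list in the results was not tested.

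The 250 bases before the start of 5 members are printed because they carry, or lack, the motifs best known from promoters of respiratory genes. RefSeq (GRCh38.p14) gave a promoter, from 250 bases before to 50 bases after the start, for 68 of the 85 members. Each was searched on both strands for GCATGCGC, the core of the NRF1 motif, for CCGGAAG, a motif of GABPA, and for AAGATGGC, a motif of YY1. The sequences are given 5′ to 3′ on the strand of the gene, and capitals mark the motif matches. SDHB (chr1:17054033-17054282, minus strand) and SDHD (chr11:112086623-112086872, plus strand) fell with 5 µM CBP30 and hold the NRF1 and GABPA motifs. SDHB also has a YY1 match past the start, outside the printed stretch. NDUFV1 (chr11:67606686-67606935, plus strand) also fell and holds none. NDUFS4 (chr5:53560389-53560638, plus strand) rose, and its YY1 match lies past the start, outside the printed stretch. COX6A1 (chr12:120437863-120438112, plus strand) is shown for its pair of NRF1 matches.
SDHB: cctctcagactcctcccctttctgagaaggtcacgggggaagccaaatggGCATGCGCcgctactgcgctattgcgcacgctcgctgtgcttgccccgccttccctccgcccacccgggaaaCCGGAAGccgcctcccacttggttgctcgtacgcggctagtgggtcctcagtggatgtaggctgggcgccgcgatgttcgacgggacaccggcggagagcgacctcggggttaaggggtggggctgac
SDHD: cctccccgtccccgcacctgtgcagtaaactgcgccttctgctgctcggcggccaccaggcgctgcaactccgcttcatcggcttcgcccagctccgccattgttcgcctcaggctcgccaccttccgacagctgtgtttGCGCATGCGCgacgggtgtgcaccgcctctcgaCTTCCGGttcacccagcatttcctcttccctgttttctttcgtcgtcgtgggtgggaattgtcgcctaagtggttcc
NDUFV1: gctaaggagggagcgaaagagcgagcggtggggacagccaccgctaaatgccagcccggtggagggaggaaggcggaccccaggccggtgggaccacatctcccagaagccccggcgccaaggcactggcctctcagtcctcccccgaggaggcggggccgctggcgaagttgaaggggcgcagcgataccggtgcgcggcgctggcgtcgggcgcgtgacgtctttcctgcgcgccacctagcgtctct
NDUFS4: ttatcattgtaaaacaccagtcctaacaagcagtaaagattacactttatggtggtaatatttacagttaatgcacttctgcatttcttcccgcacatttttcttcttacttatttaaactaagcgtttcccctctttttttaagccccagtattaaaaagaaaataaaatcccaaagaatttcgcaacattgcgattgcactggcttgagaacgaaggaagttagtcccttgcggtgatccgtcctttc
COX6A1: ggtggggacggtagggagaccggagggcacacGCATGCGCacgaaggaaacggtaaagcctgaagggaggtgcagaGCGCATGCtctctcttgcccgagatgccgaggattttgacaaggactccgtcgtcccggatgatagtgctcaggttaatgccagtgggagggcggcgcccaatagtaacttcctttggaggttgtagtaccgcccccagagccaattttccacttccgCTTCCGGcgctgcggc

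In SDHB the NRF1 core lies 200 bases and the GABPA motif 128 bases before the start. In SDHD the capitals hold overlapping NRF1 cores on both strands, followed by a GABPA motif 77 bases before the start. Over the 68 promoters the NRF1 core was found in 13 (19.1%), against 5.84% of the 9615 tested genes with a promoter and 3.27% of all 27305 promoters. YY1 matches were found in 11 (16.2%), against 5.80% of the tested genes and 3.03% of all promoters. GABPA matches were found in 20 (29.4%), against 20.5% and 10.7%. Any of the motifs was found in 34 promoters (50%), against 28.9% of the tested genes. Of the members that fell with 5 µM CBP30, 10 had a promoter and 4 of these held a motif (ATP5F1, NDUFS1, SDHB and SDHD). Of those that rose, 1 of 3 did (NDUFS4), and of the members that did not pass the test, 29 of 55 did. A match describes letters in a window, and binding was not measured here.

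Most members were abundant. In DMSO 58 of the 85 lay in the top 10% of the 12788 genes tested, and the median level was 129 FPKM. FPKM is scaled to transcript length, but the length used for each gene is not given in the sources used here. Comparisons of level between genes are therefore rough. The median over the subunit genes was 111 FPKM in complex I, 96.1 FPKM in complex II, 80.9 FPKM in complex III, 410.2 FPKM in complex IV and 270.3 FPKM in complex V. UQCRH, the hinge protein of complex III, was highest at 1459.9 FPKM, followed by ATP5B, the catalytic beta subunit of complex V, at 914 FPKM and COX7C of complex IV at 908 FPKM. NDUFS5 was highest in complex I and SDHD in complex II. Below 10 FPKM were 7 members, among them ATP5EP2 (0.137 FPKM), NDUFC2-KCTD14 (0.622 FPKM), COX7B2 (1.40 FPKM) and NDUFA4L2 (1.99 FPKM). The members' share of the summed FPKM was 2.89% and 2.91% in the DMSO samples and between 2.71% and 2.90% in 7 of the treated samples. Replicate 1 of 2 µM CBP30 stood apart at 3.48%.

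That sample stood apart in most members and in genes with short transcripts at large. Its value was above replicate 2 of the same group in 81 of the 85 members, with a median difference of 0.43 on the log2(FPKM + 1) scale. The median log2 ratio of the members to the DMSO mean was 0.46 in replicate 1 and 0.02 in replicate 2 of 2 µM CBP30, and −0.13 in both samples of 5 µM CBP30. By complex, the ratio in replicate 1 was 0.51 in complex I, 0.14 in complex II, 0.37 in complex III, 0.56 in complex IV and 0.34 in complex V, as the plot of medians by complex shows. Members have short transcripts, with a median of 857 bases against 3069 bases over the tested genes, and 59 of the 85 were in the shortest of 5 equal groups of genes by length. Over all genes, the median ratio in replicate 1 was 0.30 in the shortest group and −0.30 in the longest. It was −0.12 and 0.12 in both samples of 5 µM CBP30, and within 0.05 of 0 in the other treated samples. With the trend with transcript length removed, the members' median was 0.14 and −0.04 in the samples of 2 µM CBP30 and −0.08 and −0.06 in those of 5 µM. Counts are therefore also given with this trend removed and without replicate 1.

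**Figure D1:**
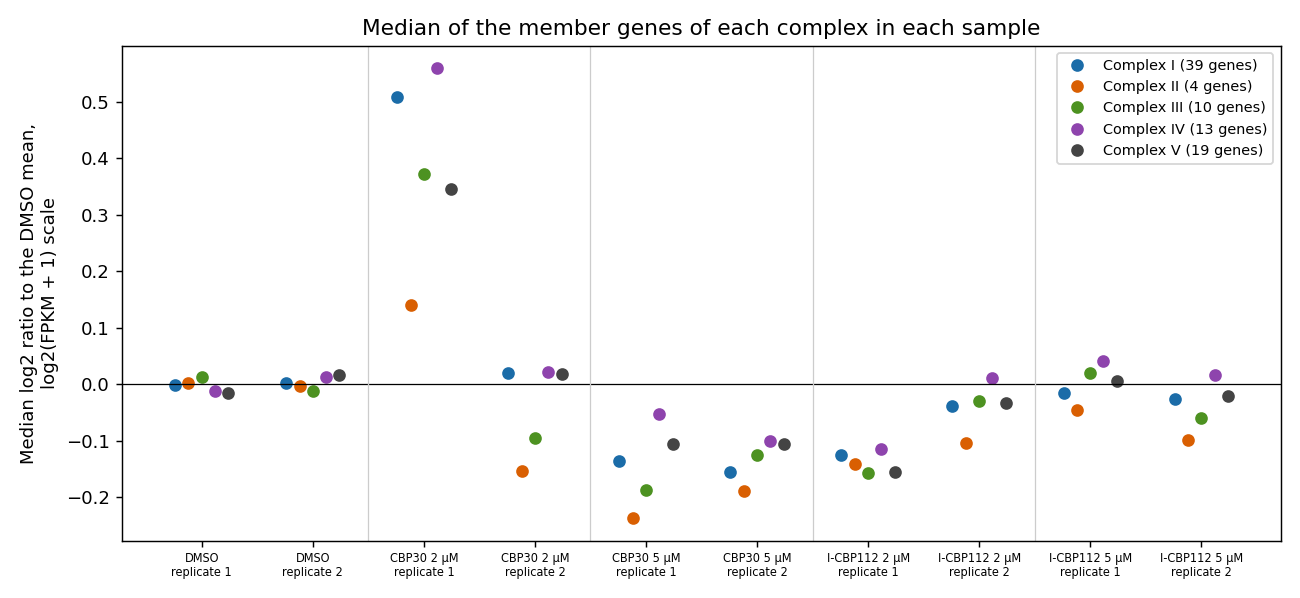
Median log2 ratio of each complex's members to the DMSO mean (y axis, log2(FPKM + 1) scale) in each of the 10 samples (x axis). Replicate 1 of 2 µM CBP30 lies between 0.14 (complex II) and 0.56 (complex IV), and the samples of 5 µM CBP30 lie below 0 in all complexes.

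**Figure D2:**
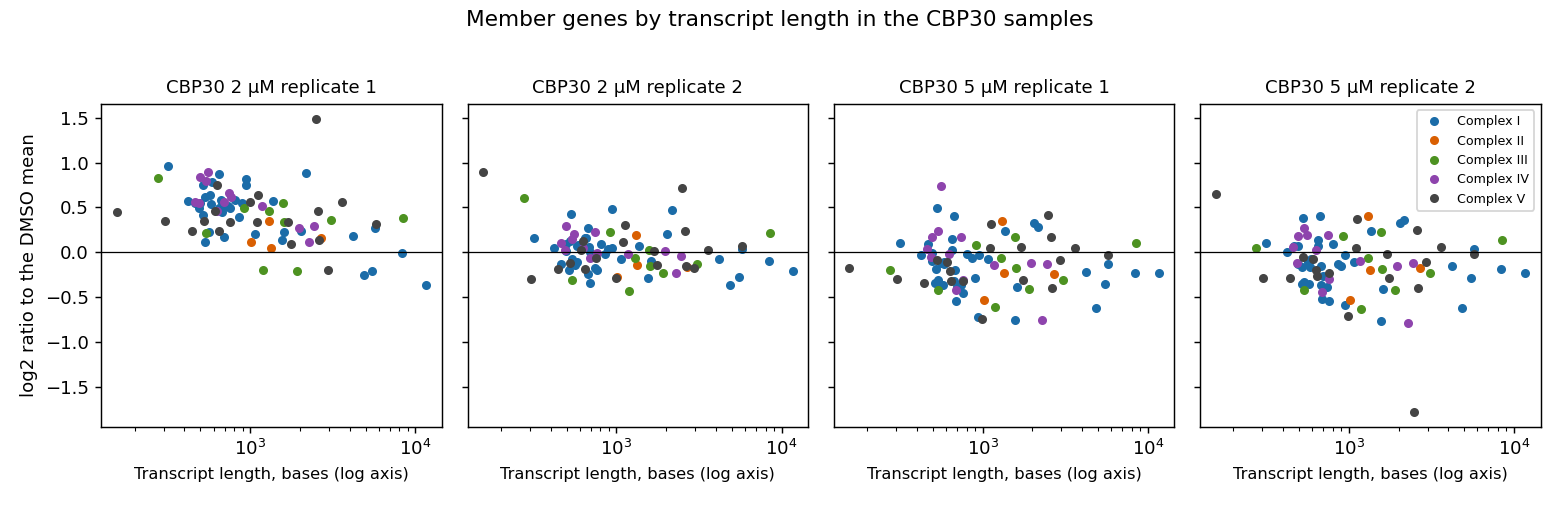
Log2 ratio of each member to the DMSO mean (y axis) against transcript length in bases (x axis, log scale) in the 4 CBP30 samples. The median over members is 0.46 in replicate 1 and 0.02 in replicate 2 of 2 µM CBP30, and −0.13 in both samples of 5 µM.

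With 5 µM CBP30, 15 of the 85 members fell and 4 rose (limma, adjusted p under 0.05 by the Benjamini-Hochberg method across every tested gene). These are 17.6% and 4.71% of the members, against 25.4% of all tested genes lower and 21.2% higher, so neither share was above the background. Those that fell include NDUFV1, NDUFS1, NDUFA10, NDUFA5, NDUFB9 and NDUFA4L2 in complex I, SDHB and SDHD in complex II, CYC1 and UQCRC2 in complex III, COX7A2L in complex IV, and ATP5B, ATP5D and ATP5F1 in complex V. The genes that rose were NDUFS4, SDHC, NDUFA4 and the readthrough gene NDUFC2-KCTD14. The median log2 fold change was −0.12 over the members and −0.01 over all genes, and 58 of the 85 were below 0. With the length trend removed, 24 fell and 12 rose (28% and 27.1% of all genes), with a median of −0.08, and after quantile normalization 15 fell and 18 rose, with a median of −0.01. Without replicate 1 of 2 µM CBP30, which enters the shared estimate of the spread, 40 fell and 12 rose (33.4% and 29.5% of all genes), and without replicate 2 of that group the counts were also 40 and 12. Without either sample of 5 µM CBP30, 8 fell and 1 rose, without DMSO replicate 1 9 fell and 0 rose, and without DMSO replicate 2 8 fell and 2 rose. At an unadjusted p under 0.05, 20 were lower and 6 higher in the fit of all samples. Counts given without a share of all genes cannot be read as results about the members.

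**Figure D3:**
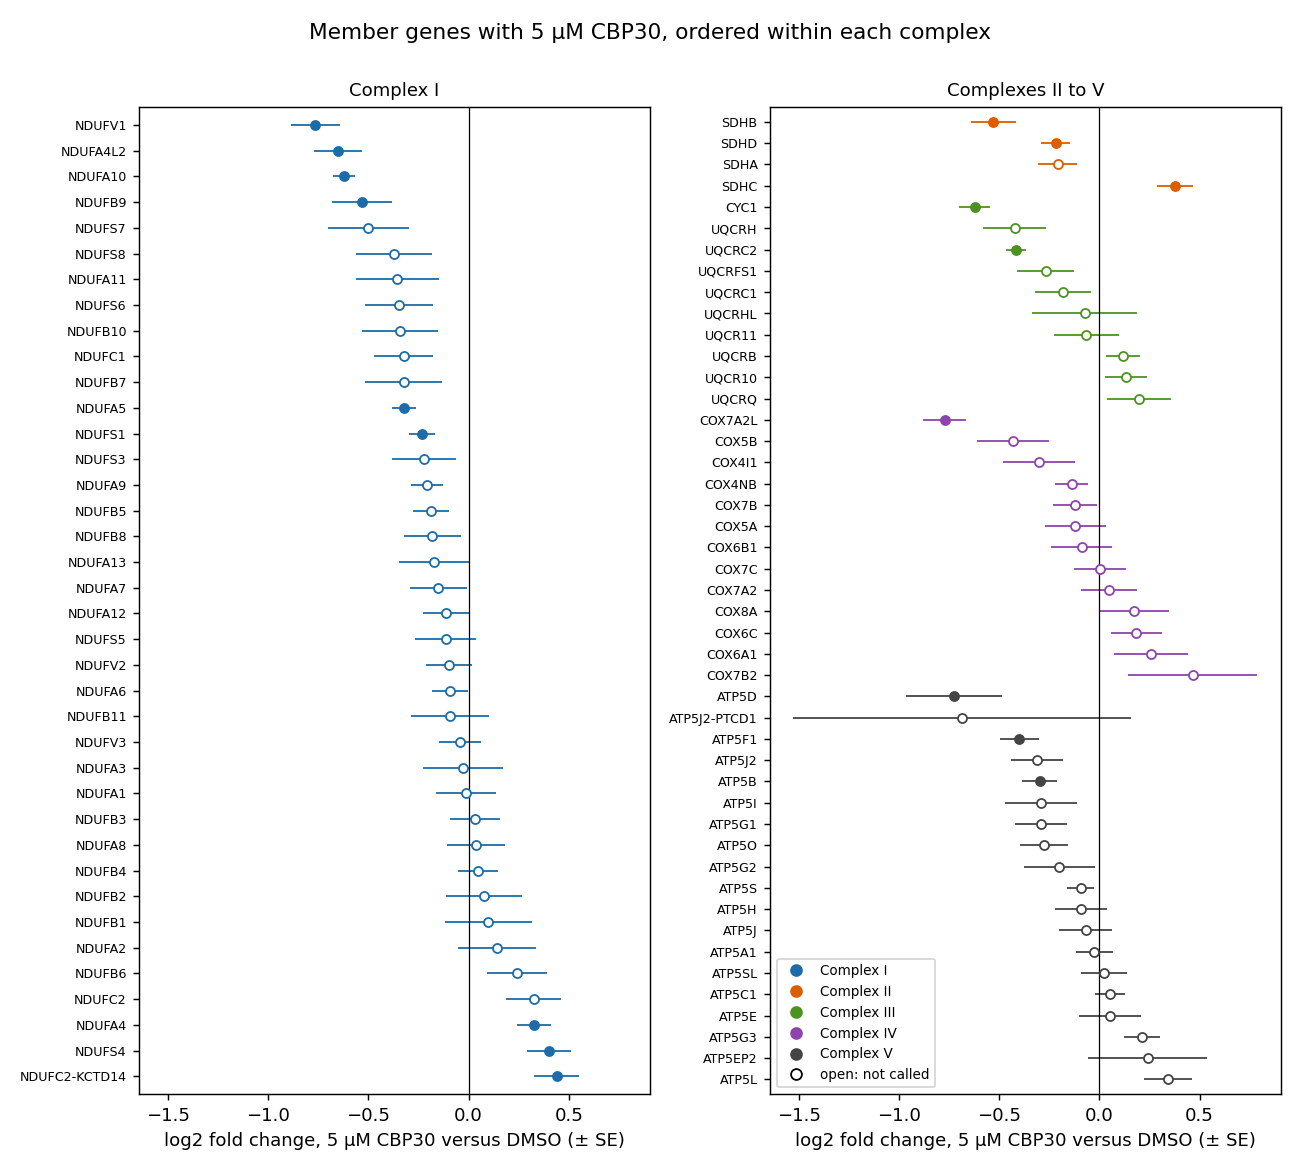
Log2 fold change of the members reported here with 5 µM CBP30 against DMSO, on the log2(FPKM + 1) scale, grouped by complex, with bars of 1 standard error and filled points for genes past the test. Those that fell range from −0.77 (COX7A2L) to −0.22 (SDHD) and the 4 that rose from 0.33 (NDUFA4) to 0.44 (NDUFC2-KCTD14).

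In complex I, 7 of 39 members fell and 3 rose, with a median of −0.15. For this and the other counts by complex with 5 µM CBP30, 25.4% of all tested genes were lower and 21.2% higher. The median over all genes was −0.01. NDUFV1 binds NADH and the flavin that takes its electrons (hg19 chr11:67373124-67380025). It measured 152 and 146 FPKM in DMSO and 87.6 and 86.8 FPKM with 5 µM CBP30, a fall of 0.76 ± 0.12 on the log2 scale (SE, adjusted p = 0.00215). Its 2 treated samples lay close to each other. They also lay far below both DMSO samples, and lying below was a condition of the rule by which genes were named. All 7 subunits of the catalytic core that carry NADH oxidation and electron transfer were below 0, with a median of −0.37, and 3 of them fell. Among these NDUFS1 also fell (log2 fold change −0.23, adjusted p = 0.0219), and 6 of the 7 were called lower without replicate 1 of 2 µM CBP30, a fit that called 33.4% of all genes lower. NDUFS7 had −0.50 with an adjusted p of 0.0789.

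Accessory subunits of complex I surround the core. Among the 31 members counted as such, 4 fell and 2 rose, with a median of −0.11. By symbol these include NDUFA4 and its paralogue NDUFA4L2. NDUFA10, of the membrane arm (hg19 chr2:240831867-240965160), measured 20.8 and 21.5 FPKM in DMSO and 13.4 and 13.3 FPKM with 5 µM CBP30. It fell by 0.62 ± 0.06 (adjusted p = 0.000177), the smallest adjusted p among the members. NDUFB9 (−0.53, adjusted p = 0.0239) and NDUFA5 (−0.32, adjusted p = 0.00402) fell as well, as did the weakly expressed NDUFA4L2. In the opposite direction, NDUFS4, an accessory subunit of the NADH-oxidizing module (hg19 chr5:52856463-52979168), measured 60.8 and 58.4 FPKM in DMSO and 79.2 and 79.1 FPKM with 5 µM CBP30. It rose by 0.40 ± 0.11 (adjusted p = 0.0202), and its groups did not overlap, as the naming rule required. NDUFA4, of complex IV by current placement, rose from 85.3 and 96.2 FPKM to 114 FPKM in both treated samples (0.33 ± 0.08, adjusted p = 0.0161). NDUFC2-KCTD14 stayed at or below 1.28 FPKM in every sample, and its rise (0.44, adjusted p = 0.017) was not called with the length trend removed (adjusted p = 0.0686).

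Complex II showed members moving in both directions. SDHB, the iron-sulfur subunit (hg19 chr1:17345159-17380527), measured 123 and 121 FPKM in DMSO and 84.2 and 84.1 FPKM with 5 µM CBP30. It fell by 0.53 ± 0.11 (adjusted p = 0.00758), or 31.0% of the mean FPKM. SDHC, a membrane anchor that binds heme and ubiquinone (hg19 chr1:161284171-161332996), measured 44.8 and 49.8 FPKM in DMSO and 60.4 and 62.9 FPKM with 5 µM CBP30. It rose by 0.38 ± 0.09 (adjusted p = 0.0121), or 30.3%, and neither gene's groups overlapped. SDHD, the other anchor (hg19 chr11:111957548-111990739), fell from 123 and 124 FPKM to 105 and 107 FPKM (−0.22 ± 0.07, adjusted p = 0.041), a call that was lost with the length trend removed (−0.08, adjusted p = 0.101). SDHA, the flavoprotein (hg19 chr5:218418-257197), had 72.2 and 68.5 FPKM in DMSO and 59.4 and 62.2 FPKM with 5 µM CBP30. Its log2 fold change of −0.21 ± 0.10 did not pass the test (adjusted p = 0.122), although it did without replicate 1 of 2 µM CBP30 (adjusted p = 0.00337). SDHC stood at 36.5% and 41.2% of the SDHB level in DMSO, 45.6% and 54.0% with 2 µM CBP30, and 71.7% and 74.8% with 5 µM CBP30. With I-CBP112 it stood at 44.3% and 47.6% (2 µM) and 50.3% and 44.6% (5 µM), so the ratio was highest in the samples of 5 µM CBP30 and lowest in DMSO. SDHC was called higher and SDHB lower in the same samples of 5 µM CBP30. The high ratio there restates those calls and is no separate result.

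**Figure D4:**
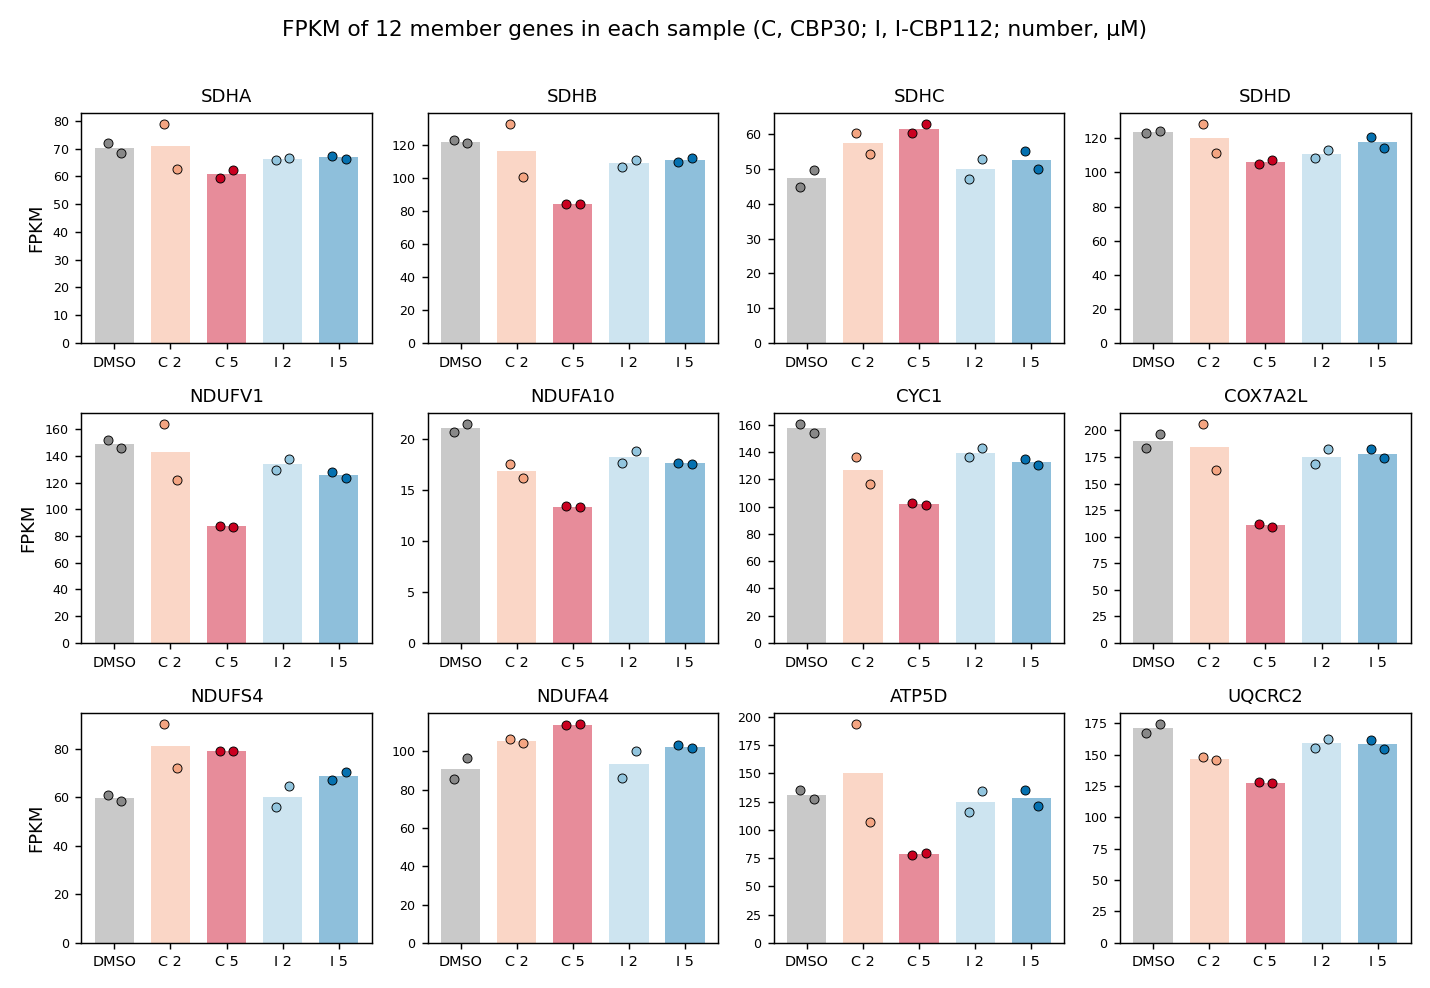
Level in FPKM (y axis) of 12 members in the 5 groups (x axis), with bars at the group mean and points for the 2 samples. SDHB drops from 123 and 121 FPKM in DMSO to 84.2 and 84.1 FPKM with 5 µM CBP30, whereas SDHC goes from 44.8 and 49.8 to 60.4 and 62.9 FPKM.

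In complex III, 2 of 10 members fell and none rose. CYC1, the cytochrome that hands electrons to cytochrome c, measured 161 and 154 FPKM in DMSO and 102 and 101 FPKM with 5 µM CBP30, and fell by 0.62 ± 0.08 (adjusted p = 0.000659). UQCRC2, a core protein of the matrix side (hg19 chr16:21964609-21994981), measured 167 and 174 FPKM in DMSO and 128 and 127 FPKM with 5 µM CBP30, and fell by 0.42 ± 0.05 (adjusted p = 0.000576). Both genes were low in each treated sample, with no overlap, as the naming rule required. The other core and redox subunits, UQCRC1 (−0.18, adjusted p = 0.317) and the Rieske iron-sulfur protein UQCRFS1 (−0.27, adjusted p = 0.157), did not pass the test. Without replicate 1 of 2 µM CBP30 they were called lower too, in a fit that called more of all genes lower. Of the 5 small subunits, 0 passed limma's adjusted test and the median was 0.12. UQCRH among them had −0.42 (adjusted p = 0.0608), from 1489 and 1431 FPKM to 1087 and 1088 FPKM.

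In complex IV, 1 of 13 members fell and 0 rose, with a median of −0.09. NDUFA4, which rose, was counted under complex I and is not among the 13. COX7A2L, which helps join complexes III and IV into supercomplexes (hg19 chr2:42560686-42652228), measured 184 and 197 FPKM in DMSO and 112 and 109 FPKM with 5 µM CBP30. It fell by 0.77 ± 0.11 (adjusted p = 0.0012), or 41.7%, the largest fall on the log2(FPKM + 1) scale among the called members. That scale understates the change of low genes. In proportion, the weakly expressed NDUFA4L2 fell further, from 1.97 and 2.02 FPKM to 0.820 and 0.997 FPKM. The common isoforms of the structural subunits showed values on both sides of 0 and did not pass the test, with COX4I1 at −0.30 (adjusted p = 0.209), COX6A1 at 0.26 (adjusted p = 0.285), COX6B1 at −0.09 (adjusted p = 0.669), COX7A2 at 0.05 (adjusted p = 0.808) and COX8A at 0.17 (adjusted p = 0.431). Without replicate 1 of 2 µM CBP30, members of complex IV were called in both directions, in a fit that called more of all genes both lower and higher.

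In complex V, 3 of 19 members fell and 0 rose, with a median of −0.09. ATP5D, the delta subunit of the rotating central stalk (hg19 chr19:1241745-1244824), measured 135 and 127 FPKM in DMSO and 77.5 and 79.8 FPKM with 5 µM CBP30. It fell by 0.73 ± 0.24 (adjusted p = 0.0427). ATP5F1, subunit b of the peripheral stalk, fell from 227 and 234 FPKM to 175 and 174 FPKM (−0.40 ± 0.10, adjusted p = 0.0127), and ATP5B fell by 0.30 ± 0.09 (adjusted p = 0.0288). In these genes each treated sample lay below both DMSO samples, which the naming rule required of ATP5D and ATP5F1. All 4 subunits of the peripheral stalk were below 0, with a median of −0.18. Besides ATP5F1, ATP5O had −0.32 and −0.23 in the samples of 5 µM CBP30. ATP5H (−0.11 and −0.08) and ATP5J (−0.08 and −0.06) lay closer to 0. The median over the shortest of the 5 length groups of all genes was −0.12 in both samples. ATP5L, subunit g of the membrane part, measured 176 and 193 FPKM in DMSO and 229.8 and 238 FPKM with 5 µM CBP30, and just missed the threshold (0.34, adjusted p = 0.05001).

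With 2 µM CBP30, 5 of the 85 members fell and 10 rose against DMSO, against 16.3% of all genes lower and 15.9% higher. The 5 that fell had also fallen at 5 µM. CYC1 measured 137 and 117 FPKM (log2 fold change −0.31, adjusted p = 0.0211), NDUFA10 17.6 and 16.2 FPKM (−0.31, adjusted p = 0.0075) and UQCRC2 148 and 146 FPKM (−0.22, adjusted p = 0.0171). In each, both samples lay below both DMSO samples, which the naming rule required of CYC1 and NDUFA10. The other genes were NDUFS1 and NDUFA5. Of the called rises, the largest were those of NDUFC2, an accessory subunit of complex I, with 126 and 94.4 FPKM against 65.4 and 70.8 FPKM in DMSO (0.67, adjusted p = 0.0113), and COX8A of complex IV, with 932 and 637 FPKM against 533 and 509.7 FPKM (0.56, adjusted p = 0.0417), besides the weakly expressed NDUFA4L2. ATP5L (0.47, adjusted p = 0.024), NDUFS4 (0.43, adjusted p = 0.0243) and UQCR10, a small subunit of complex III (0.36, adjusted p = 0.0384), also rose, as did COX6C, ATP5G3, NDUFB4 and UQCRB. Replicate 1 was the higher sample in each of these named rises. Without it, 15 members fell and 10 rose (19.9% and 17.2% of all genes), the 5 falls and 7 of the 10 rises were called in both fits, and UQCRB, UQCR10 and COX8A were lost. The members' median moved from 0.24 to 0.02 without replicate 1. With the length trend removed, 13 fell and 8 rose (20.3% and 20.4% of all genes). Without DMSO replicate 1, 2 fell and 1 rose, without DMSO replicate 2, 0 fell and 3 rose, and without replicate 2 of 2 µM CBP30, 65 rose. A fit of these 2 groups alone called 0 and 0.

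Between the CBP30 doses, limma called 25 members lower with 5 µM and 0 higher (21.3% and 17.6% of all genes, with 44 and 0 members at an unadjusted p under 0.05), and 80 of the 85 log2 differences were below 0. Their median was −0.31. With the length trend removed, 60 were below 0 and the median was −0.11. With replicate 1 of 2 µM CBP30 left out as well, 46 were below 0 and the median was −0.01. NDUFV1 had 164 and 122 FPKM at 2 µM against 87.6 and 86.8 FPKM at 5 µM, a difference of −0.69 (adjusted p = 0.00817). COX7A2L had 206 and 162 FPKM against 112 and 109 FPKM (−0.72, adjusted p = 0.00526), and SDHB had 133 and 100.5 FPKM against 84.2 and 84.1 FPKM (−0.45, adjusted p = 0.0222). In all these genes the samples of 5 µM lay below both samples of 2 µM. NDUFA10 was lower by −0.31 (adjusted p = 0.00839). CYC1 also differed by −0.31 (adjusted p = 0.0217), but by −0.03 with the length trend removed (adjusted p = 0.594). NDUFS4 (−0.03, adjusted p = 0.868), SDHC (0.10, adjusted p = 0.377) and NDUFA4 (0.11, adjusted p = 0.312), which rose at 5 µM against DMSO, did not pass the test between doses. With the length trend removed, 21 members were lower and 5 higher (19.3% and 17.9% of all genes), and without replicate 1 of 2 µM CBP30, 21 and 1 (18.2% and 15.3%). Without either sample of 5 µM CBP30 the count fell from 25 to 2, and without replicate 2 of 2 µM CBP30 it was 73.

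With 5 µM I-CBP112, 1 of the 85 members fell and 0 rose, against 3.28% of all genes lower and 3.84% higher. The gene was NDUFA10, with 17.7 and 17.6 FPKM against 20.8 and 21.5 FPKM in DMSO (−0.25 ± 0.06, adjusted p = 0.0462), and the call was lost on leaving out any sample of DMSO, 5 µM CBP30 or I-CBP112. At an unadjusted p under 0.05, limma gave 3 members lower and 3 higher. The next smallest adjusted p values were those of ATP5EP2 (1.03, adjusted p = 0.0916), CYC1 (−0.24, adjusted p = 0.117), NDUFC2-KCTD14 (0.36, adjusted p = 0.118) and NDUFA5 (−0.16, adjusted p = 0.163). With the length trend removed, 4 fell and 0 rose (7.94% and 7.18% of all genes). Without replicate 1 of 2 µM CBP30, 7 fell and 2 rose (12.4% and 10.5%), among them CYC1, NDUFV1 and SDHB on the lower side.

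With 2 µM I-CBP112, 0 members passed limma's test in either direction, against 0.735% of all genes lower and 0.868% higher, and 2 were lower and 1 higher at an unadjusted p under 0.05. The smallest adjusted p was 0.15, for NDUFA4L2 (0.45). Without replicate 1 of 2 µM CBP30, 7 were lower and 1 higher (4.9% and 4.17% of all genes). Between the doses of I-CBP112, 0 members passed in either direction, as did 0.00782% of all genes on the lower and 0.0547% on the higher side. The smallest adjusted p there was 0.519, and 0 members were lower and 2 higher at an unadjusted p under 0.05.

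CBP30 and I-CBP112 were compared directly at each matched dose, 2 comparisons in all, with p values adjusted over the genes of each comparison. At 5 µM, 9 members were lower with CBP30 and 0 higher, against 17.9% and 13.6% of all genes. Among these 9, the largest differences were those of NDUFA4L2 (−0.86, adjusted p = 0.00241), COX7A2L and NDUFV1. COX7A2L measured 112 and 109 FPKM with CBP30 and 182 and 174 FPKM with I-CBP112, a difference of −0.68 (95% interval −0.94 to −0.42, adjusted p = 0.00425). NDUFV1 measured 87.6 and 86.8 FPKM with CBP30 and 128 and 124 FPKM with I-CBP112, a difference of −0.52 (−0.81 to −0.23, adjusted p = 0.0184). The groups did not overlap in either gene. SDHB (−0.39), CYC1 (−0.38), NDUFA10 (−0.37), ATP5F1 (−0.32) and UQCRC2 (−0.31) were also lower with CBP30. For the genes that rose with CBP30 the compounds did not differ past the threshold, with an interval of 0.02 to 0.44 for SDHC, −0.06 to 0.46 for NDUFS4 and −0.04 to 0.35 for NDUFA4. Without replicate 1 of 2 µM CBP30, 35 members were lower and 3 higher (28.2% and 24% of all genes).

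At 2 µM, 0 members were called lower with CBP30 and 7 higher, against 8.45% of all genes lower and 7.13% higher. Only the share called higher was near that of all genes. At an unadjusted p under 0.05 limma gave 1 and 31. NDUFC2 (0.58, adjusted p = 0.0354), UQCR10 (0.45, adjusted p = 0.034) and NDUFC2-KCTD14 (0.45, adjusted p = 0.0421) had the largest differences among the 7 called members. NDUFC2 measured 126 and 94.4 FPKM with CBP30 and 66.9 and 78.9 FPKM with I-CBP112. UQCR10 measured 85.4 and 70.4 FPKM against 52.7 and 60.5 FPKM, and replicate 1 of CBP30 was the highest sample in both genes. Without it, 2 members were lower and 3 higher (10.5% and 8.26% of all genes), and the members' median moved from 0.29 to 0.05. The 7 calls were lost, with 0 left, on leaving out any sample outside 2 µM CBP30.

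**Figure D5:**
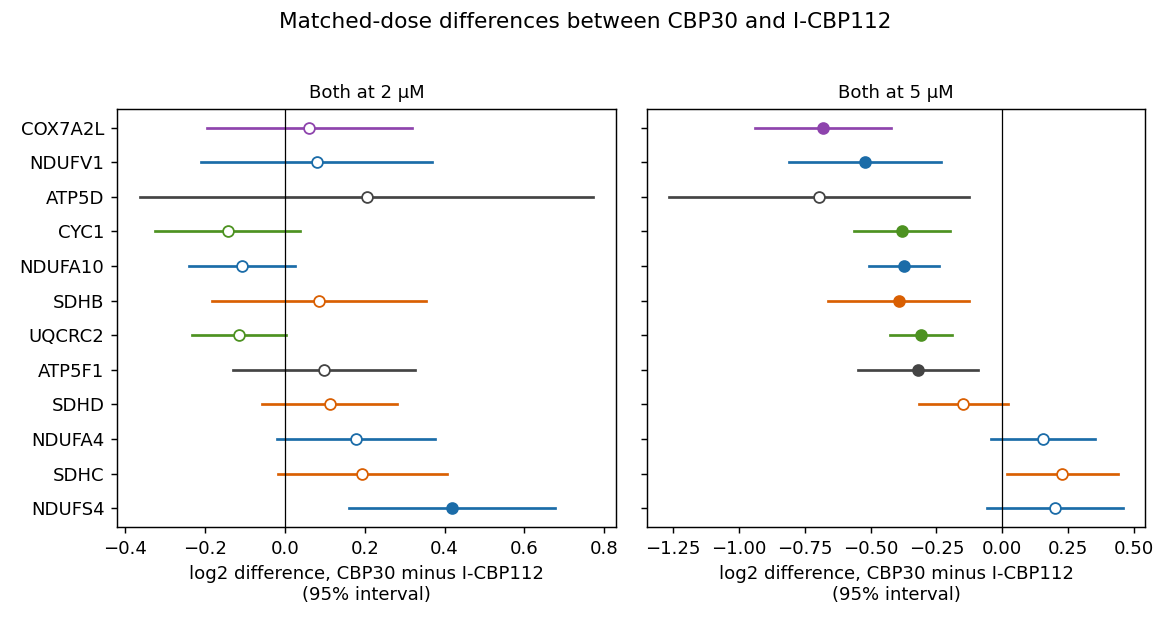
Difference between CBP30 and I-CBP112 (x axis, log2(FPKM + 1) scale, with 95% intervals) for 12 members at 2 µM and at 5 µM, with filled points for differences past the test. At 5 µM COX7A2L lies at −0.68 and NDUFV1 at −0.52, and at 2 µM both intervals cross 0.

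Several members have a paralogue, and the level of one relative to the other was followed within each sample. COX7A2L stood at 68.9% and 67.0% of the COX7A2 level in DMSO, 49.9% and 54.0% with 2 µM CBP30, 39.2% and 37.4% with 5 µM CBP30, and between 58.2% and 65.0% with I-CBP112. Every treated sample lay below both DMSO samples, and the samples of 5 µM CBP30 were lowest. COX7A2L was called lower in these samples of 5 µM CBP30, so its low ratio there restates that call. ATP5G1, ATP5G2 and ATP5G3 encode the same mature c subunit of complex V. ATP5G1 stood at 93.6% and 90.2% of the ATP5G3 level in DMSO, 78.6% and 68.5% with 2 µM CBP30, and 65.1% and 64.0% with 5 µM CBP30. Against DMSO at 5 µM, ATP5G1 had −0.29 (adjusted p = 0.102), ATP5G2 −0.20 (adjusted p = 0.388) and ATP5G3 0.21 (adjusted p = 0.0906). These ratios were not tested.

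NDUFA4L2, a paralogue of NDUFA4 known for its induction in hypoxia, moved in opposite directions at the CBP30 doses. It measured 1.97 and 2.02 FPKM in DMSO, 4.28 and 3.18 FPKM with 2 µM CBP30, 0.820 and 0.997 FPKM with 5 µM CBP30, and between 2.34 and 3.26 FPKM with I-CBP112. It rose by 0.65 (adjusted p = 0.00752) at 2 µM and fell by 0.65 (adjusted p = 0.00396) at 5 µM against DMSO, and neither CBP30 group overlapped with DMSO. The pseudogene ATP5EP2 was listed at 0 in 4 samples and reached 1.68 FPKM. UQCRHL ranged from 3.58 to 9.47 FPKM beside a UQCRH level above 1000 FPKM. Of the members, 48 have at least 1 named pseudogene copy, and how reads were divided between copies is not given in the sources used here.

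Among genes that serve the complexes without being part of them, 19 of 49 assembly factors fell with 5 µM CBP30 and 1 rose, with a median of −0.21. For this list and the following ones, 25.4% of all tested genes were lower and 21.2% higher. The largest falls were SELRC1, a factor of complex IV assembly also known as COA7 (−0.96, adjusted p = 2.79e-05), C1orf31 (COA6, −0.83, adjusted p = 0.00411) and CHCHD8 (COA4, −0.79, adjusted p = 0.000737). COX11, which helps insert copper into complex IV, rose (0.28, adjusted p = 0.00822). Of 17 enzymes of the tricarboxylic acid cycle and pyruvate dehydrogenase, which supply the NADH and succinate, 9 fell and 3 rose. IDH3G (−0.54, adjusted p = 0.00698), DLAT (−0.51, adjusted p = 0.00052) and MDH2 (−0.48, adjusted p = 0.0192) fell most, and OGDH (0.47, adjusted p = 0.000363), PDHB (0.24, adjusted p = 0.0264) and IDH3A (0.22, adjusted p = 0.0342) rose. Of 12 other genes listed beside the pathway, 4 fell and 0 rose, namely DHODH (−0.83, adjusted p = 9.44e-05), VDAC1 (−0.36, adjusted p = 0.000841), ETFA (−0.32, adjusted p = 0.0134) and cytochrome c, CYCS (−0.23, adjusted p = 0.0326). This list is mixed and includes subunit genes that the symbol pattern did not take, such as NDUFAB1.

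Of 21 regulators of mitochondrial biogenesis and of mitochondrial DNA expression, 12 fell and 2 rose with 5 µM CBP30, with a median of −0.31. Of all tested genes, 25.4% were lower and 21.2% higher. MYC measured 338 and 320.1 FPKM in DMSO, 148 and 146 FPKM with 2 µM CBP30, 81.7 and 80.9 FPKM with 5 µM CBP30, 241 and 231 FPKM with 2 µM I-CBP112, and 209.6 and 201 FPKM with 5 µM I-CBP112. It fell by 2.00 with 5 µM CBP30 (adjusted p = 1.02e-06), and all treated samples lay below both DMSO samples. ESRRA, a nuclear receptor of respiratory genes (−1.02, adjusted p = 0.000409), and TFB2M, a factor that starts mitochondrial transcription (−0.91, adjusted p = 3.51e-05), also fell. GABPA, whose motif is among those searched in the promoters, rose (0.39, adjusted p = 0.0438), as did CREB1 (0.39, adjusted p = 0.0383). With 5 µM I-CBP112, MYC (−0.68, adjusted p = 0.000959) and TFB2M (−0.30, adjusted p = 0.0229) fell, together with the assembly factor SELRC1 (−0.25, adjusted p = 0.0415) and DLAT (−0.29, adjusted p = 0.0337). With 2 µM I-CBP112 only MYC fell among the 4 lists (−0.48, adjusted p = 0.00941). These lists share the backgrounds given for the members, and nothing particular to a list was tested.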

How the data were processed

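Poly(A)-selected RNA from 10 samples of K562 cells was sequenced on stranded libraries as single reads. The authors deposited 1 FPKM value per gene and sample, without pooling replicates. The study names the Nextpresso pipeline, and the submitters' processing notes list TopHat2 2.0.10, Bowtie 1.0.0, SAMtools 0.1.19, Cufflinks 2.2.1, FastQC and Cuffnorm with GRCh37/hg19. Read counts cannot be had from FPKM and library depth is unknown, so precision rests on 2 samples per group. Each p value sets a difference against a spread between samples that was estimated jointly over all 5 groups. Each column was assigned to its sample by name, with 0 columns left over.

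The study names a false discovery rate of 0.05 but the sources used here do not give its test, and FPKM are not counts, so log2(FPKM + 1) was fitted with limma 3.58.1 in R 4.3.3 (lmFit, contrasts.fit, eBayes with trend). Genes averaging 0.5 FPKM or more (12788 of 23284) entered 1 fit of all 5 groups (5 residual degrees of freedom, 2.15 prior), and p values were adjusted by Benjamini-Hochberg over these genes, with a threshold of 0.05. A fold change on this scale understates the change of low genes. The length trend was removed by loess (span 0.5) of each sample's deviation on the log2 length of GENCODE transcripts for GRCh37, known for 12135 tested genes. The fit was tested on simulated data. Other steps used pandas 2.3.3, matplotlib 3.10.9 and Python 3.11.15.

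Genes named with values are, in each complex, the 2 largest falls and 2 largest rises called with 5 µM CBP30 and the largest with 2 µM (mean of at least 5 FPKM, treated samples beyond both DMSO samples), the 5 lowest adjusted p with 5 µM I-CBP112, the 3 largest called differences each way between compounds, the highest and lowest member of each complex, the SDH genes, paralogues, and up to 3 falls and 3 rises of each list. Others were named after their values were seen. A member that entered all counts and medians is not reported here by itself. The members and lists were chosen with earlier results of these data known. Settings varied were the pseudocount (0.1), the filter (none, or 5 FPKM), median centring, quantile normalization, length and GC trends removed, the replicate number as a block, eBayes without the trend, only the groups compared, subunit genes alone, and each sample left out in turn.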

Additional observations from a re-analysis of the deposited data

How the results depend on the processing

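Precision rests on 2 samples per group and an unknown depth. Of 384 counts of members compared with an alternative, 236 stayed within 1.5 times, and of 3304 single values 2950 kept their direction and side of the threshold, 124 were weaker, 177 stronger, 43 moved and 10 reversed. The cause of these changes was not tested. The share of all genes called also moved with the setting. For 5 µM I-CBP112 it went from 3.28% to 7.94% lower with the length trend removed. Where no share of all genes is given, a changed count cannot be read as a result about the members. Counts are given as lower and higher.

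With the length trend removed, the counts were 24 and 12 for 5 µM CBP30 against DMSO, 13 lower for 2 µM CBP30, 4 lower for 5 µM I-CBP112, 1 and 1 for 2 µM I-CBP112, 5 higher between CBP30 doses, and between compounds 9 higher at 5 µM and 2 lower at 2 µM. With the length and GC trends removed, they were 27 and 12, 10 lower, 5 lower, 1 and 1, 3 higher, 14 and 10 at 5 µM, and 2 and 15 at 2 µM. With the median length of the basic transcripts, an alternative chosen after seeing the data, they were 25 and 12, 11 lower, 3 lower, 1 and 1, 3 higher, 9 higher at 5 µM and 3 lower at 2 µM. With replicate 1 of 2 µM CBP30 left out and the length trend removed, also chosen after seeing the data, they were 36 and 18, 22 lower, 20 and 1, 13 and 1, 11 and 8, 19 and 16, and 4 lower.

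After quantile normalization, 18 were higher with 5 µM CBP30, 8 lower and 16 higher with 2 µM CBP30, 3 lower with 5 µM I-CBP112, 4 higher between CBP30 doses, 10 higher between compounds at 5 µM, and 1 and 14 at 2 µM. Median centring gave 3 lower with 2 µM CBP30 and 0 lower with 5 µM I-CBP112. Without a filter, 6 were higher with 2 µM CBP30, 0 lower with 5 µM I-CBP112, 13 lower between CBP30 doses and 1 higher between compounds at 2 µM. Without the trend in eBayes, 0 were lower with 5 µM I-CBP112. With only the groups compared, the counts were 45 and 14 for 5 µM CBP30, 0 and 0 for 2 µM CBP30, 4 and 2 for 5 µM I-CBP112, 0 lower between CBP30 doses, 37 and 7 between compounds at 5 µM and 0 higher at 2 µM.

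With 1 sample left out in turn, where a lone sample is assumed to vary like the other groups, the counts ranged from 8 to 40 lower and 0 to 12 higher for 5 µM CBP30, 0 to 15 and 1 to 65 for 2 µM CBP30, 0 to 7 and 0 to 2 for 5 µM I-CBP112, 0 to 7 and 0 to 1 for 2 µM I-CBP112, 2 to 73 and 0 to 1 between CBP30 doses, and between compounds 4 to 35 and 0 to 3 at 5 µM, and 0 to 2 and 0 to 71 at 2 µM. The extremes of 65, 73 and 71 came without replicate 2 of 2 µM CBP30.

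Deviations of same-numbered samples correlated between −0.07 and 0.09 over all genes, and between −0.82 and 0.58 over the members. The labels do not say whether same-numbered samples were handled together, and these correlations cannot settle it. Under the replicate block, 0 were lower and 1 higher with 5 µM I-CBP112 and 2 higher between compounds at 2 µM, and the other counts stayed within 1.5 times. Under the replicate block together with removal of the length trend, counts were 26 and 12 for 5 µM CBP30, 11 lower for 2 µM CBP30, 3 and 1 for 5 µM I-CBP112, 1 higher for 2 µM I-CBP112, 5 higher between CBP30 doses, 14 and 7 between compounds at 5 µM and 2 lower at 2 µM.

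All reversed values were log2 fold changes of 2 µM CBP30 against DMSO. Over the samples left out, SDHB ranged from −0.28 to 0.12 and SDHA from −0.16 to 0.16, and UQCRH had 0.22 without replicate 2. With replicate 1 left out and the length trend removed, ATP5D had −0.31, SDHA −0.16 and ATP5G1 −0.24. ATP5G1 also had −0.20 with the length trend removed, with or without the block, −0.19 with the GC trend removed too, and −0.20 with the basic transcript length.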
